A study of Mus musculus with 18 samples.

Results

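Sertoli cells, the supporting cells inside the seminiferous tubule, secrete hormones, carrier proteins, proteases and growth factors, and 10 genes for such products linked to follicle stimulating hormone (FSH) were followed across 4 genotypes of mouse testis. They were chosen by name: Inha, Inhba and Inhbb (inhibin and activin subunits), Shbg (androgen-binding protein), Clu (clusterin), Trf (transferrin), Ctsl (cathepsin L), Amh (anti-Müllerian hormone), Gdnf (glial cell line-derived neurotrophic factor) and Kitl (KIT ligand). Of the 10 genes, 8 had a probe with their name, with 11 probes of 45281 on the array, which names 19057 genes in all. A total of 5 of these probes, 1 each for Inha, Shbg, Trf, Ctsl and Gdnf, were among the 19076 probes detected on at least 4 arrays and were tested. Inhbb and Clu were not analysed here, because no probe carried their name.

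FSH binds its receptor on Sertoli cells and raises cyclic AMP there, while luteinizing hormone acts on Leydig cells between the tubules, which then make testosterone for the Sertoli cells. Inhibin is a dimer of the alpha subunit with a beta subunit, travels to the pituitary and lowers FSH release, whereas dimers of beta subunits alone form activin, which raises it. Androgen-binding protein holds androgen inside the tubule, and transferrin brings iron across the Sertoli cell barrier to the germ cells. GDNF keeps spermatogonial stem cells in place, KIT ligand acts on differentiating spermatogonia, and anti-Müllerian hormone is made mainly by immature Sertoli cells and falls at puberty.

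Whole testis RNA of mice aged 12 weeks, bred from FVB/N and C57/BL6 strains, was hybridised to Illumina bead arrays, 1 array for each of 18 samples. The groups were wild type (4 arrays), Fshr mutant (4 arrays), Lhr null (5 arrays) and Fshr mutant/Lhr null (5 arrays), the last called the double mutant here. Lhr null mice lack the luteinizing hormone receptor, and the column headers write the other allele as Fshr-CAM. In published work that name stands for a constitutively active FSH receptor, expressed in Sertoli cells as a transgene under a promoter of the anti-Müllerian hormone gene, though the labels used here do not state it. All groups share age and strain cross. Whether every sample is its own animal is not in the labels, and p-values then measure no more than the spread between these arrays.

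Between 15482 and 18950 probes were detected per array, at a detection p under 0.01 against the negative control beads, and a probe rested on a median of 40 to 43 beads. The Fshr transcript (probe ILMN_1228881) was at 5.17 to 5.88 on a log2 scale in wild type and at 8.47 to 8.77 in Fshr mutant arrays. It was also high, at 7.60 to 8.37, on the Lhr null arrays, which carry no Fshr-CAM allele by their labels. On 4 double mutant arrays it was at 8.48 to 9.27, but on the remaining array, labelled double mutant replicate 2, it was at 5.71, within the wild type range and below every Lhr null array. That array also had a summed Leydig marker level of 11040 over 5 genes, against 3276 to 4481 on the other 4 double mutant arrays, and double mutant values of the 5 products and counts of the lists are also given without it. Lhr null replicate 1 resembled wild type more than its group did, with a mean correlation over probes of 0.934 against 0.851 to 0.887 for the others, and was left out in a further alternative. As a check of the tissue label, 9 of 10 spermatid and 5 of 8 Leydig markers passed the detection filter, and 0 of 8 markers of efferent duct or epididymis did. Among those that did not pass, Prm2 (spermatid), Lhcgr (Leydig) and Crisp1 (epididymis) had no probe with their name.

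The 3 products that rose in Lhr null testis, Inha, Shbg and Gdnf, are shown with the sequence just before their start sites. The 250 bases before each start are from RefSeq on build GRCm38.p6, where 7 of the 10 genes had an entry and Gdnf had 2 starts. Capitals mark matches to any of 11 motifs searched on both strands.
Inha, chr1:75507359-75507608, plus strand: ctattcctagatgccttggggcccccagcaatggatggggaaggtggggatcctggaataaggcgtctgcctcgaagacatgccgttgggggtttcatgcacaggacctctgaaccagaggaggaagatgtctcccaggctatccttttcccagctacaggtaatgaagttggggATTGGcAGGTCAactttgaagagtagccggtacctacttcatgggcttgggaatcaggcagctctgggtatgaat
Shbg, chr11:69617906-69618155, minus strand: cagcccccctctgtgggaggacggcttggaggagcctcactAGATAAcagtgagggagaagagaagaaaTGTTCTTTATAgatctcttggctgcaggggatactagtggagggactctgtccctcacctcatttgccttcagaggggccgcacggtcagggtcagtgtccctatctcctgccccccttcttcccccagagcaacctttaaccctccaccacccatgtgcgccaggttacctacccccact
Gdnf, first start, chr15:7809798-7810047, plus strand: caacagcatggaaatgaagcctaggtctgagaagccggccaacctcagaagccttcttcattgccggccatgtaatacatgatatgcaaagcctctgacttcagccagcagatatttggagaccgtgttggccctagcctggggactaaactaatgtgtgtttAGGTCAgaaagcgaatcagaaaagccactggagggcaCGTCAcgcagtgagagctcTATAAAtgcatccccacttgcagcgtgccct
Gdnf, second start, chr15:7813477-7813726, plus strand: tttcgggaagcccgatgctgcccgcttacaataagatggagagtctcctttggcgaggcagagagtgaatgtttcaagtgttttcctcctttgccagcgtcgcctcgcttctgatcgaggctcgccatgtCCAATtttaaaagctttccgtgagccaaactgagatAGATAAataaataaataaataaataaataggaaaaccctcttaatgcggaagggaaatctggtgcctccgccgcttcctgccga
The set of motifs was settled after their matches in these promoters had been seen, so a match is a description only. The Inha window held AGGTCA, a nuclear receptor half-site, beginning 69 bases before the start, and ATTGG, the reverse complement of CCAAT, at 75 bases. In the Shbg window were the GATA form AGATAA at 209 bases and TGTTCT, the reverse complement of the androgen receptor half-site AGAACA, at 181 bases. TTTATA, the reverse complement of TATAAA, was at 176 bases, sharing 1 base with TGTTCT. The first Gdnf start had AGGTCA at 87 bases, CGTCA, the reverse complement of the cyclic AMP response half-site TGACG, at 50 bases and TATAAA at 31 bases. The second Gdnf start had CCAAT at 120 bases and AGATAA at 84 bases. These letters are common: among 32851 mouse promoter windows of the same length, AGGTCA was in 14%, CCAAT in 33.8%, AGATAA in 9.99%, AGAACA in 16.1%, TATAAA in 12.4% and TGACG in 17.8%, counting both strands. The other motifs searched had no match in these 4 windows: TGACGTCA, which contains TGACG, was in 1.55% of all windows, AAGGTCA, which contains AGGTCA, in 4.08%, TGATAA in 7.94%, CACGTG in 6.02% and GGGCGG in 32.7%.

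Loss of the luteinizing hormone receptor raised Inha, Shbg and Gdnf. In the double mutant all 3 were lower than in Lhr null, and none was called different from wild type. Their log2 differences from wild type were 0.36 for Inha, -0.24 for Shbg and 0.32 for Gdnf. Of the 5 tested products, 3 rose and 0 fell in Lhr null relative to wild type, where limma called 41.3% of all tested probes higher and 27.5% lower at an adjusted p under 0.05. The double mutant had 4 of the 5 lower and 1 higher than Lhr null, against 42.5% and 30.1% of all tested probes. Against wild type the double mutant had 0 of the 5 called, where 0.834% of all tested probes were. Between Fshr mutant and wild type 0 of the 5 were called, as were 0% of all tested probes. In that last comparison limma gave no adjusted p below 0.0659, although 786 probes were under 0.05 before adjustment. Between double mutant and Fshr mutant 0 of the 5 were called, and 0.0367% of all tested probes were. So many probes moved in the Lhr null comparisons that these counts are near the background, and sizes are given beside the share of probes that moved as far. Of the probes called, 60.1% were higher in Lhr null with quantile normalization and 48.4% with cyclic loess, and for double mutant against Lhr null the share was 41.5% with quantile normalization, 50.7% with cyclic loess and 28.1% without normalization. The median log2 difference was 0.83 over the 5 products and 0.17 over all tested probes between Lhr null and wild type, and -0.59 against -0.16 between double mutant and Lhr null.

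**Figure D1:**
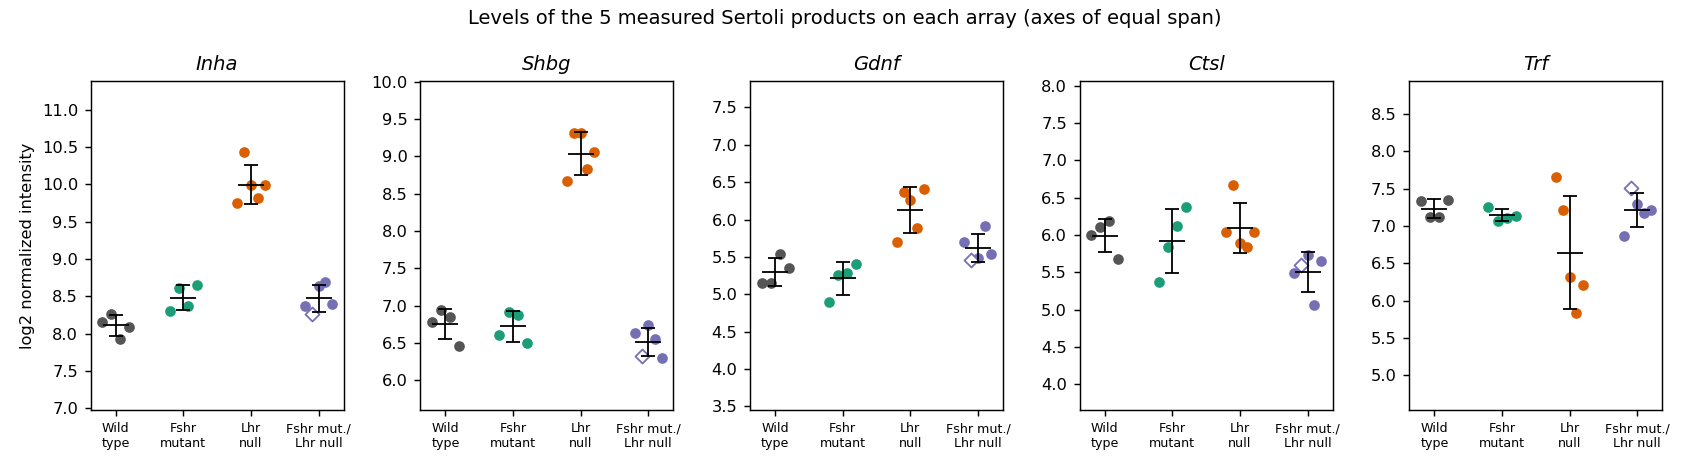
Log2 normalized intensity of the 5 tested products (vertical axes, equal span in every panel) on each array by genotype, with horizontal lines for the group mean and bars for 1 SD; the open diamond is the array labelled double mutant replicate 2. Inha and Shbg stand apart in Lhr null, at 9.75 to 10.43 and 8.67 to 9.31, and Trf spreads from 5.83 to 7.65 there.

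Inha encodes the alpha subunit that makes a dimer an inhibin. Its probe (ILMN_1239270) was at 8.15, 8.26, 7.93 and 8.09 on the log2 scale on the 4 wild type arrays and at 8.30, 8.61, 8.37 and 8.65 on the 4 Fshr mutant arrays. On the 5 Lhr null arrays it was at 9.75, 10.43, 9.99, 9.82 and 9.99. The 5 double mutant arrays had 8.37, 8.27, 8.64, 8.69 and 8.40. Every Lhr null array was thus above every array of the other 3 groups, and the double mutant arrays lay in the range of the Fshr mutant arrays or just beside it. Wild type had a mean of 8.11 ± 0.14 (SD, n = 4) and Fshr mutant one of 8.48 ± 0.17 (SD, n = 4). Lhr null reached 9.997 ± 0.26 (SD, n = 5), and the double mutant mean was 8.47 ± 0.18 (SD, n = 5). Lhr null was 3.70-fold above wild type, a log2 difference of 1.89 (SE 0.13, limma adjusted p = 4.71e-09). Only 0.341% of all tested probes were at least as far up. The double mutant was 2.88-fold below Lhr null, a difference of -1.52 (SE 0.13, limma adjusted p = 1.30e-08), with 1.31% of probes at least as far down. In whole testis a change in the number of Sertoli cells relative to other cells and a change in RNA per Sertoli cell cannot be told apart. Neither can be told from a change in any other cells that carry the transcript.

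The Inha level in the double mutant was close to that of the Fshr mutant, with a difference of -0.01 and a 95% interval from -0.29 to 0.27 (limma adjusted p = 0.999). All Fshr mutant arrays were above all wild type arrays, by 0.37 on average (SE 0.14, 95% interval 0.08 to 0.67), but the call failed after adjustment over all probes (limma adjusted p = 1). Among all tested probes 1.89% had every Fshr mutant array above every wild type array. The double mutant also lay above wild type on every array, by 0.36 (SE 0.13, limma adjusted p = 0.189), as did 4.37% of all tested probes. These small differences depended on scaling, since without normalization between arrays they were 0.20 and 0.00. The lack of overlap did too. Before correction, wild type replicate 3 had an Inha intensity of 468, against 359 to 417 in Fshr mutant and 308 to 376 in the double mutant. That array had the highest median intensity of all arrays, 76.8. Without the array labelled double mutant replicate 2 the double mutant differed from Lhr null by -1.47 and from wild type by 0.41.

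Shbg encodes the binding protein that Sertoli cells release into the tubule fluid, and of the 5 products it differed most in both Lhr null comparisons. Its probe (ILMN_1227933) was at 6.78, 6.94, 6.84 and 6.47 in wild type and at 6.61, 6.92, 6.87 and 6.5 in Fshr mutant arrays. The Lhr null arrays had 8.67, 9.31, 9.31, 8.83 and 9.06. The double mutant arrays had 6.64, 6.33, 6.74, 6.56 and 6.30. All Lhr null arrays were far above the rest, and the other 3 groups overlapped each other. In Lhr null the mean was 9.04 ± 0.29 (SD, n = 5), 4.86-fold above the wild type mean of 6.76 ± 0.20 (SD, n = 4), a log2 difference of 2.28 (SE 0.15, limma adjusted p = 2.25e-09). At least as far up were 0.142% of all tested probes. The double mutant, at 6.51 ± 0.19 (SD, n = 5), was 5.75-fold below Lhr null, a difference of -2.52 (SE 0.14, limma adjusted p = 3.55e-10), and 0.0681% of probes fell at least as far. The Fshr mutation alone gave a difference of -0.03 with a 95% interval from -0.36 to 0.30 (limma adjusted p = 1). Between double mutant and wild type it was -0.24 with an interval from -0.56 to 0.07 (limma adjusted p = 0.42). Without the array labelled double mutant replicate 2 the difference from Lhr null was -2.48.

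The interaction compares the effect of the Fshr mutation in Lhr null testis with its effect in testis with an intact luteinizing hormone receptor. It was -1.90 for Inha (SE 0.19, limma adjusted p = 1.09e-06) and -2.49 for Shbg (SE 0.21, limma adjusted p = 3.52e-07). Of the 5 products these 2 were called, both lower, where 34% of all tested probes were called lower and 23.7% higher. At least as low were 0.409% of tested probes for Inha and 0.121% for Shbg. Gdnf (-0.43, limma adjusted p = 0.101), Ctsl (-0.52, limma adjusted p = 0.123) and Trf (0.66, limma adjusted p = 0.138) did not pass. Without Lhr null replicate 1, Gdnf (-0.53, limma adjusted p = 0.0278) and Trf (0.91, limma adjusted p = 0.0117) passed as well. Leaving out Fshr mutant replicate 1 instead also brought the count to 4, through Gdnf (-0.53) and Ctsl (-0.70). Without the array labelled double mutant replicate 2, Inha (-1.84, limma adjusted p = 3.66e-06) and Shbg (-2.44, limma adjusted p = 1.25e-06) passed, and Gdnf (-0.39), Ctsl (-0.54) and Trf (0.58) did not. Lhr null arrays stand in both Lhr null comparisons and in the interaction, so these values are not independent of each other.

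**Figure D2:**
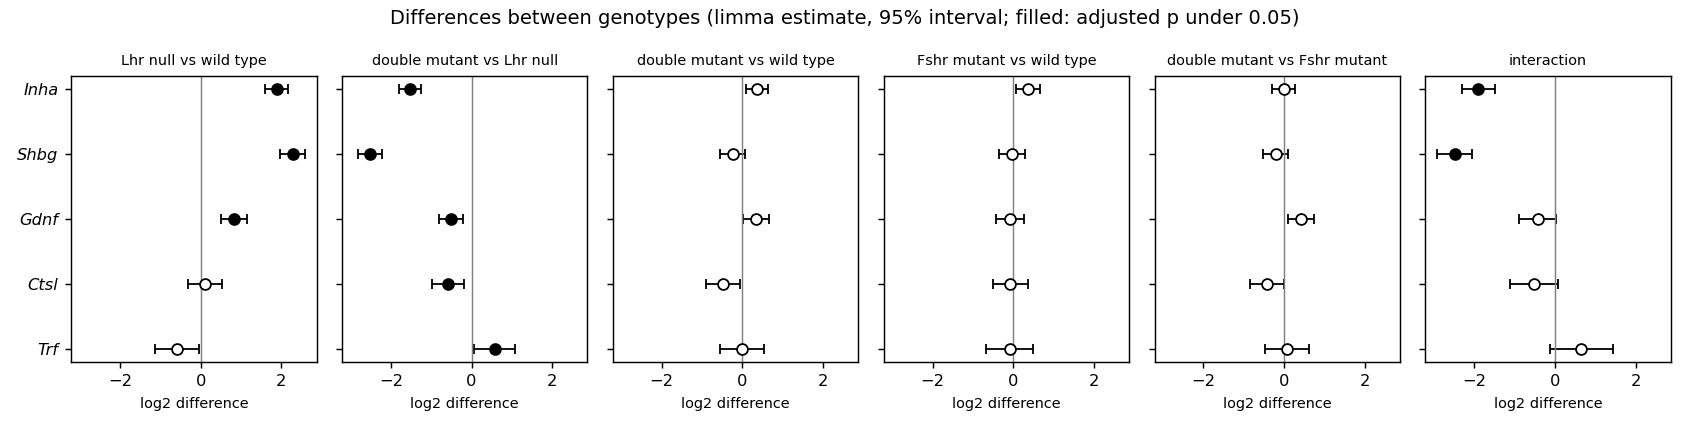
Log2 difference of each tested product in the 5 comparisons of genotypes and in the interaction (horizontal axes), with the limma estimate as a point and its 95% interval as a bar; filled points have an adjusted p under 0.05. Inha and Shbg are far from 0 in the Lhr null comparisons and the interaction, at 1.89 and 2.28, -1.52 and -2.52, and -1.90 and -2.49, and no point is filled for double mutant against wild type, Fshr mutant against wild type or double mutant against Fshr mutant.

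Gdnf, a growth factor for spermatogonial stem cells, rose in Lhr null by a smaller step and close to the detection limit. Its tested probe (ILMN_2659994) was at 5.15, 5.15, 5.54 and 5.35 in wild type, detected on 2 of 4 arrays, and at 4.90, 5.26, 5.29 and 5.41 in Fshr mutant, detected on 0 of 4. In Lhr null it was detected on all 5 arrays, at 5.71, 6.37, 6.27, 5.89 and 6.41. Double mutant arrays had 5.70, 5.45, 5.49, 5.91 and 5.54, with detection on 2 of 5. After normalization the Lhr null arrays were all above the wild type arrays, while 1 double mutant array exceeded the lower Lhr null values. Before correction, wild type replicate 3 lay within the Lhr null range, at an intensity of 115.0 against 87.1 to 125.8. Lhr null was 1.78-fold above wild type, a log2 difference of 0.83 (SE 0.15, limma adjusted p = 0.000107), and 14.7% of all tested probes were at least as far up. Of the 5 products 3 stood apart upward from wild type without overlap, Inha, Shbg and Gdnf, as did 32.6% of all tested probes. The double mutant was lower than Lhr null by 1.42-fold, a difference of -0.51 (SE 0.14, limma adjusted p = 0.00427), and 32.7% of probes fell at least as far. Without the array labelled double mutant replicate 2 it was -0.47 (SE 0.16, limma adjusted p = 0.0129).

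Relative to the Fshr mutant, in which Gdnf was not well above background, all double mutant arrays were higher. Gdnf was detected on only 2 of the 5 double mutant arrays, however, and the difference was not called (0.41, SE 0.15, limma adjusted p = 0.639). Among all tested probes 1.44% stood apart upward in that comparison. Against wild type the double mutant differed by 0.32 (SE 0.15, limma adjusted p = 0.294). A second Gdnf probe (ILMN_2701617) was detected on 0 of 18 arrays, at intensities from 40.6 to 50.8 and a lowest detection p of 0.252.

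Ctsl encodes cathepsin L, a lysosomal protease that Sertoli cells also secrete. Its probe (ILMN_2904703) was at 6.0, 6.11, 6.18 and 5.67 in wild type, and at 5.37, 5.83, 6.12 and 6.37 in Fshr mutant arrays, where 3 of 4 detected it. In Lhr null it was at 6.04, 6.66, 5.90, 5.84 and 6.04. The double mutant had 5.49, 5.6, 5.73, 5.06 and 5.65 and detection on 3 of 5 arrays. All double mutant arrays lay below all Lhr null arrays, and every other pair of groups overlapped. Lhr null and wild type differed by 0.10 (SE 0.20, 95% interval -0.32 to 0.52, limma adjusted p = 0.662). The double mutant was 1.51-fold below Lhr null, a difference of -0.59 (SE 0.19, limma adjusted p = 0.00905), with 28.3% of all tested probes at least as far down. With Inha and Shbg, 3 of the 5 products stood apart downward in this comparison, as did 32.3% of all tested probes. Cyclic loess normalization ended the Ctsl call (-0.39, limma adjusted p = 0.0614), and leaving out the array labelled double mutant replicate 2 kept it (-0.61, limma adjusted p = 0.0131). Against wild type the double mutant differed by -0.49 (SE 0.20, limma adjusted p = 0.23).

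Trf encodes transferrin, the iron carrier, and of the 5 products it had the widest spread inside a group. Its probe (ILMN_2485323) was at 7.34, 7.11, 7.12 and 7.34 in wild type and at 7.26, 7.07, 7.11 and 7.13 in Fshr mutant arrays. Double mutant arrays had 6.87, 7.51, 7.29, 7.18 and 7.21. Lhr null arrays had 7.65, 7.21, 6.31, 5.83 and 6.21. Lhr null thus held both the highest value of all and the 3 lowest, with a mean of 6.64 ± 0.76 (SD, n = 5) against 7.23 ± 0.13 (SD, n = 4) in wild type. The difference from wild type was -0.58 (SE 0.26, limma adjusted p = 0.0558), which did not pass. It passed without Lhr null replicate 1 (-0.84, limma adjusted p = 0.00179), without Lhr null replicate 2 (-0.73, limma adjusted p = 0.0216) and with cyclic loess (-0.82, limma adjusted p = 0.0145). The double mutant was 1.48-fold above Lhr null, 0.57 on the log2 scale (SE 0.25, limma adjusted p = 0.0465), with 22.5% of all tested probes at least as far up. That call held in 10 of 32 alternatives, and without the array labelled double mutant replicate 2 the difference was 0.49 (limma adjusted p = 0.104).

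Spermatid transcripts varied across the same arrays, a pattern noticed after the values were seen. The mean log2 level of 9 spermatid genes, relative to wild type, was -1.17, -1.96, -2.47, -2.96 and -2.81 on Lhr null replicates 1 to 5, the same order as for Trf. On the other 13 arrays it was between -0.10 and 0.07, while Trf lay between 6.87 and 7.51. Their summed level was 20191 to 53816 in Lhr null and 79647 to 90604 in wild type. On Lhr null replicates 1 and 2 Trf was not below the wild type range, at 7.65 and 7.21, although their spermatid levels were lower than in wild type. What part the spermatid share has in the Trf level was not tested.

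**Figure D3:**
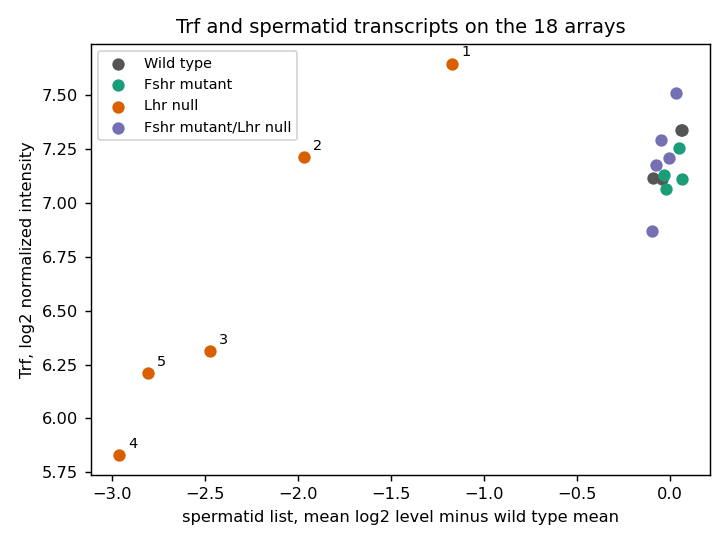
Log2 level of Trf (vertical axis) against the mean log2 level of 9 spermatid genes minus its wild type mean (horizontal axis), 1 point per array, coloured by genotype, with numbers for the Lhr null replicates. Outside Lhr null all arrays are within -0.10 and 0.07 on the horizontal axis, and the Lhr null arrays run from -1.17 with Trf at 7.65 to -2.96 with Trf at 5.83.

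The remaining products gave little signal. Inhba, the beta A subunit of activin and inhibin, had a probe (ILMN_2868220) detected on 1 of 18 arrays, Lhr null replicate 2, with an intensity of 356.8 against 49.4 to 73.2 on the other 17. The standard error over its beads was 19.38% of the mean there and 4.18% to 6.72% on the others. Amh (ILMN_2768691) was detected on 0 arrays, at intensities of 39.0 to 63.5 and a lowest detection p of 0.0641. Its receptor gene Amhr2 was bright throughout, as given with the partner genes. Kitl had 3 probes, detected on 0 arrays, at 38.8 to 51.4 (ILMN_1251500), 39.2 to 51.3 (ILMN_2676022) and 44.0 to 71.7 (ILMN_2751988). For these 3 genes no difference between genotypes was measurable with these probes, which does not show that the transcripts are absent.

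**Figure D4:**
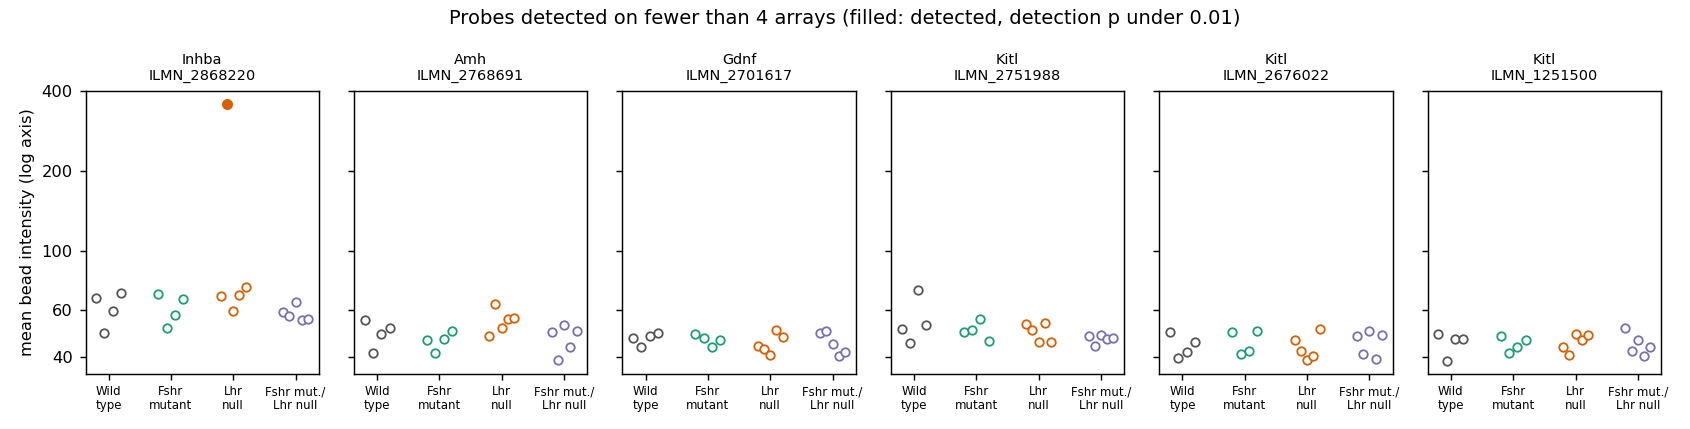
Mean bead intensity before correction (vertical log axis) of the 6 probes detected on fewer than 4 arrays, 1 point per array, by genotype; filled points were detected. The only filled point is Inhba on Lhr null replicate 2, at 356.8, and all other values are between 38.8 and 73.2.

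Receptors, signal carriers and handling proteins for the same products came from lists chosen by function. Their levels are those of whole testis, so the cell type in which a list member changed was not measured. Between Lhr null and wild type the receptor lists moved mostly up, as many probes did: 41.3% of all tested probes were called higher and 27.5% lower, 68.8% together. For double mutant against Lhr null these shares were 30.1% higher and 42.5% lower, and the counts of every list are to be read against them. Some members were detected on too few arrays of the other genotypes to pass the filter without the Lhr null arrays, so that a high Lhr null level was a condition of their being tested, and counts are also given without them, an alternative chosen after seeing the data. Of 17 partners of inhibin, activin and the TGF-beta family, 8 were tested, 5 were higher and 0 lower, with a median log2 difference of 1.00. Smad3 (1.33, SE 0.17) and Smad2 (1.19, SE 0.14), which carry activin signals to the nucleus, rose, as did the activin receptors Acvr2b (1.20, SE 0.11) and Acvr1b (0.89, SE 0.14). Furin (1.11, SE 0.14), a protease that cleaves precursors of this family, rose too. Tgfbr3, betaglycan, the co-receptor that lets inhibin compete with activin, differed by -0.38 (SE 0.19, limma adjusted p = 0.0859), and Acvr2a did not pass the detection filter. The double mutant had 0 of the 8 higher and 5 lower than Lhr null, with a median of -0.81. These 5 were lower by 1.05 (Smad3), 1.15 (Smad2), 0.91 (Acvr2b), 0.72 (Acvr1b) and 1.55 (Furin) on the log2 scale, and these calls held with median scaling, cyclic loess and no normalization.

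Partners of AMH, GDNF and KIT ligand had 10 of 14 members tested, with 7 higher and 2 lower in Lhr null and a median of 0.66. Without Ret and Ntn4, which passed the filter through Lhr null alone, these were 5 higher and 2 lower of 8. Amhr2, the AMH receptor of Sertoli and Leydig cells, averaged 11.34 ± 0.08 (SD, n = 4) in wild type against 12.32 ± 0.28 (SD, n = 5) for Lhr null, a rise of 0.98 (SE 0.12) that was not called without normalization between arrays (0.48). The receptors Bmpr2 (1.31, SE 0.12) and Bmpr1a (1.18, SE 0.23) rose. Ret, the signalling receptor for GDNF, had signal above background on 5 of 5 Lhr null arrays and 0 arrays of the other genotypes, and its Lhr null level was at least 1.23-fold above wild type, a value given with no test because of that filter. Kit, the receptor of KIT ligand, rose by 0.67 (SE 0.18), and Gfra1, the GDNF co-receptor, did not pass the detection filter. Etv5 (-0.68, SE 0.17), a GDNF-responsive factor of stem cells and also a Sertoli factor, and the adhesion molecule Ncam1 (-0.58, SE 0.13) fell. The double mutant had 7 lower and 2 higher than Lhr null (median -0.80), or 5 and 2 without Ret and Ntn4. Amhr2 fell by 0.79, Bmpr2 by 1.5, Bmpr1a by 1.65 and Kit by 1.19. The 2 higher members, Ncam1 (0.45) and Etv5 (0.60), lost their calls with median scaling.

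Iron handling genes had 10 of 13 tested, with 4 higher and 2 lower in Lhr null (median 0.29). Slc40a1, ferroportin, the iron exporter, rose by 1.84 (SE 0.22), and Fth1, the ferritin heavy chain, by 0.83 (SE 0.09), although Fth1 was not called with median scaling (0.35). Tfrc, the transferrin receptor, rose by 0.57 (SE 0.12). Ireb2, an iron-sensing regulator of those transcripts, fell by 1.27 (SE 0.15). In the double mutant 2 were higher and 6 lower than in Lhr null, or 2 and 5 without the array labelled double mutant replicate 2, with Slc40a1 at -2.47 (SE 0.21) and Tfrc at -0.71 (SE 0.11). Of 19 cathepsins and cystatins 13 were tested, with 5 higher and 3 lower (median 0.36). Without Ctsz, which passed the filter only with the Lhr null arrays, 5 were higher and 3 lower of 12 (median 0.22). The reproductive cystatins Cst12 (1.53, SE 0.10) and Cst9 (1.65, SE 0.58) rose, as did legumain, Lgmn (0.84, SE 0.14), while Ctsc fell by 0.98 (SE 0.42). Cst9 lost its call with median scaling (1.18) and Ctsc without Lhr null replicate 1 (-0.86). The double mutant had 1 higher and 7 lower than Lhr null, with or without Ctsz, or 1 and 6 without the array labelled double mutant replicate 2. The lysosomal proteases Ctsb and Ctsh were below wild type there, at -1.02 (SE 0.23, limma adjusted p = 0.0391) and -1.06 (SE 0.24, limma adjusted p = 0.0435), and at -1.15 and -1.11 without that array.

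Of 27 FSH receptor and cyclic AMP genes 17 were tested, with 10 higher and 4 lower in Lhr null (median 0.49), or 8 and 4 of 14 without the 3 members that rested on 1 genotype for detection. Fshr rose by 2.37 (SE 0.47). The double mutant minus Lhr null difference was 0.23 (SE 0.45, limma adjusted p = 0.658) on all arrays and 0.85 (SE 0.18, limma adjusted p = 0.000511) without the array labelled double mutant replicate 2. Foxo1, a transcription factor that FSH signalling restrains, rose by 1.5 (SE 0.15). Prkar2a, a regulatory subunit of protein kinase A, fell by 2.22 (SE 0.13), and Pde4a, a cyclic AMP phosphodiesterase, by 1.51 (SE 0.20). The double mutant had 5 higher and 9 lower than Lhr null, or 6 and 9 without that array. Without the 3 members resting on 1 genotype for detection, 5 were higher and 7 lower. Prkar2a was at 2.39 (SE 0.12), Pde4a at 1.93 (SE 0.19) and Foxo1 at -1.41 (SE 0.14). Of 35 other Sertoli secreted products 18 were tested, with 10 higher and 1 lower (median 0.37). Without Igfbp3, Bmp4, Wnt5a and Cyp26b1, which passed the filter only with the Lhr null arrays, 6 were higher and 1 lower of 14. Mgp, matrix Gla protein, rose by 1.79 (SE 0.21), Dhh, the hedgehog signal to Leydig and myoid cells, by 1.51 (SE 0.15), and Psap, prosaposin, by 1.10 (SE 0.11). Igf1, which Leydig cells also make, fell by 1.03 (SE 0.19). In the double mutant 1 was higher and 11 lower than in Lhr null, or 1 and 7 without those 4 genes, with Mgp at -2.2 (SE 0.20), Dhh at -1.28 (SE 0.14) and Psap at -1.01 (SE 0.11). Without the array labelled double mutant replicate 2 the double mutant against Lhr null counts were again 5 lower for the inhibin and activin partners, 2 higher and 7 lower for those of AMH, GDNF and KIT ligand, and 1 higher and 11 lower for the other secreted products. Between Fshr mutant and wild type 0 genes of the 6 lists were called on all arrays. Fshr itself was 3.03 higher in the Fshr mutant, with no overlap between the groups, at an adjusted p of 0.0659 in limma (SE 0.50). Leaving out the array labelled double mutant replicate 2, which also enters the common estimate of spread, gave the same 3.03 with an SE of 0.19 and a limma adjusted p of 2.72e-07. The mean log2 of the FSH receptor and cyclic AMP list, relative to wild type, was 0.13 to 0.25 on the Fshr mutant arrays against -0.11 to 0.10 on the wild type arrays. That mean includes Fshr itself, 1 of the 17 genes, with its difference of 3.03, so it does not show a shift of the list as a whole. The median difference of the list between Fshr mutant and wild type was -0.007, against 0.005 over all tested probes.

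**Figure D5:**
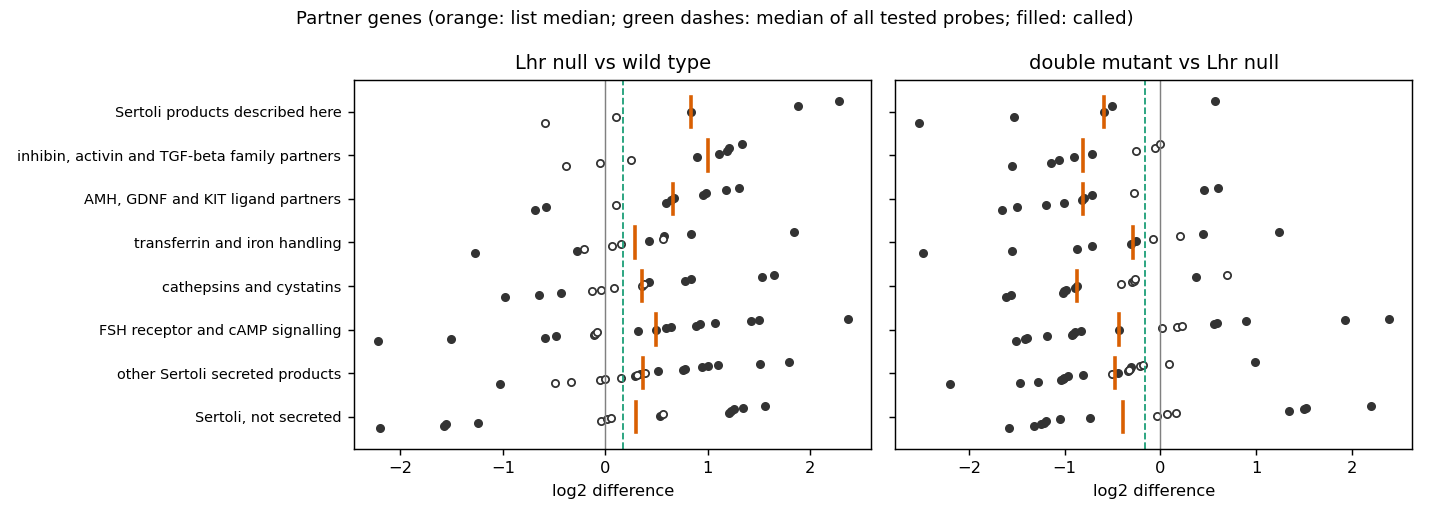
Log2 difference of each tested gene of the products and of 7 lists (1 row each), for Lhr null against wild type and double mutant against Lhr null (horizontal axes); filled points have an adjusted p under 0.05, orange lines are the list median and the green dashed line is the median of all tested probes, at 0.17 and -0.16. The inhibin and activin partners have medians of 1.00 and -0.81, and most lists hold genes on both sides of 0.

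Markers of the cell types were set beside these values. Sertoli genes that are not secreted had 14 of 20 tested, with 6 higher and 4 lower in Lhr null, close to the shares of 41.3% and 27.5% over all tested probes. Without Gata1, which passed the filter only with the Lhr null arrays, 5 were higher and 4 lower of 13. Sox9 (1.56, SE 0.13), Vim (1.34, SE 0.10) and Cldn11 (1.22, SE 0.10) rose, whereas Rhox5, which androgen induces, fell by 2.2 (SE 0.18) and Cldn3, not well above background in Lhr null, was at least 1.82-fold lower (limma adjusted p = 3.30e-06). The mean log2 of the 14 genes, relative to wild type, was -0.06 to 0.22 on the Lhr null arrays and overlapped the -0.10 to 0.12 of the wild type arrays, as genes moved both ways. Their summed linear level, which the brightest genes carry, was 28700 to 36202 in Lhr null against 15198 to 17957 in wild type and 15340 to 18051 in the double mutant. Spermatid markers were lower for 9 of 9 tested and Leydig markers for 5 of 5 in Lhr null. In the double mutant 9 of 9 spermatid markers were higher than in Lhr null. Against wild type 4 of 5 Leydig markers were lower, or 5 of 5 without the array labelled double mutant replicate 2. In that comparison 105 probes, 0.55% of all tested, were called lower on all arrays, and 204 probes without that array. Spermatogonia and spermatocyte markers were higher for 5 of 8, 1 of them Stra8, which passed the filter through Lhr null alone, with a summed level of 7330 to 10660 in Lhr null against 4424 to 5848 in wild type. Macrophage markers were lower for 3 of 6, with a summed level of 995 to 2223 in Lhr null against 4333 to 5380 in wild type. In Lhr null 2 of 4 peritubular myoid markers were higher and 1 lower. Of 5 endothelial markers 1 was higher and 1 lower, or 0 and 1 of 2 without the 3 that rested on 1 genotype for detection. What part these shifts in other cell types have in the levels of the products and of the partner genes was not tested.

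For the 2 products whose group means spanned at least 1 on the log2 scale, the named genes with the most similar profile over the 18 arrays were found by the root mean square difference of centred log2 values. Nearest to Inha were Alyref (0.17), an mRNA export factor, the histone gene H2ac12 (0.18), whose near-identical copies make its signal uncertain, and Dkk3 (0.20), a secreted protein of the dickkopf family. The median over all named probes was 0.73. Nearest to Shbg were Fxyd6 (0.20), a regulator of the sodium pump, the septin gene Septin11 (0.20) and Rasl12 (0.21), against a median of 1.04. Fxyd6 had group means of 10.57 in wild type, 10.65 in Fshr mutant, 12.73 in Lhr null and 10.50 in the double mutant. Detection of Dkk3 was limited to 5 of 5 Lhr null arrays, with 0 in the other groups, so outside Lhr null its profile is one of values not well above background.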

How the data were processed

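Testis RNA was measured on 18 Illumina bead arrays, and arrays were grouped by the genotype in the labels. The arrays were summarised with GenomeStudio 1.7.0, per the submitters' processing notes; no other step is named there. The deposited signal table, per the file headers, gives for each of 45281 probes the mean bead intensity on a linear scale, not normalized, with its bead standard error, the bead number as a count, and the detection p-value. Processed intensity values deposited by the authors were used only as an alternative, with array medians of 61.6 to 61.7 and a normalization that is not stated. No 2 arrays were identical, and the number of arrays limits the precision.

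Background was removed by normexp (limma 3.58.1, R 4.3.3; background from the detection p-values, offset 16), and values were quantile normalized and taken to log2. The offset shrinks the folds of dim probes. The 19076 probes with a detection p under 0.01 on 4 arrays or more were tested by limma with 4 group means over all 18 arrays, eBayes, and Benjamini-Hochberg adjustment over all tested probes at 0.05. A probe was named where its annotation gives 1 symbol (34885 probes; 18 have several, 10378 none), and 34807 symbols were updated through the RefSeq gene table. The brightest tested probe stood for a gene. The fit was tested on simulated data, made from already normalized values with independent noise and changes planted in few probes. In the Lhr null comparisons most probes were called, so that test does not cover this setting or the choice of normalization.

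Where a group had no detected array, the fold is a lower bound against the lowest detected signal. No fold is given for Gdnf between double mutant and Fshr mutant, since most double mutant arrays did not detect it either. Named genes are the listed products, up to 4 called members of each partner list with the largest difference between Lhr null and wild type, a set of receptors, and for products spanning at least 1 log2 the 3 nearest profiles. Ctsb, Ctsh, the members that passed the filter through 1 genotype and the genes named for losing a call were named after their values were seen. The products and the lists were chosen with earlier results of these data known. Alternatives were normalization, background, offset, filter, unit, samples in the fit, array weights, replicate number and leaving out each array.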

Additional observations from a re-analysis of the deposited data

Results flagged for a closer look

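The effect of the Fshr mutation differed with the luteinizing hormone receptor for Inha (interaction -1.90, limma adjusted p = 1.09e-06) and for Shbg (-2.49, limma adjusted p = 3.52e-07).

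In 44 groups of arrays checked, 3 had an array far from the rest of its group, and chance gives about 1 in 20 groups. Inhba was at 8.44 on the log2 scale on Lhr null replicate 2 and at 4.76 to 5.24 on the other Lhr null arrays. Ctsl was at 6.66 on the same array and at 5.84 to 6.04 on the others. Kitl (ILMN_1251500) was at 4.45 on Fshr mutant/Lhr null replicate 1 and at 4.33 to 4.36 on the others, detected on none of them.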

How the results depend on the processing

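Over 32 alternatives, 919 of 955 values of the 5 products kept their direction or stayed uncalled, 23 lost the call, 13 gained it and 0 reversed. Sign changes occurred 25 times in 8 values, 0 of them called in either fit. Products called numbered 3 to 4 for Lhr null against wild type and 4 to 5 for double mutant against Lhr null. For the interaction 4 were called with array weights and 4 without both arrays that stood apart (the array labelled double mutant replicate 2 and Lhr null replicate 1, chosen after seeing the data), and 2 to 4 when 1 array was left out. Of all tested probes, the main setting called 68.8% for Lhr null against wild type and 72.6% for double mutant against Lhr null. For the interaction it called 57.7%, so these counts of the 5 products are near the background.

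Probes called between Lhr null and wild type numbered 7688 with the brightest probe per gene and 7620 with the mean of probes, fewer features being tested. For double mutant against Lhr null these were 8015 and 7928, and for the interaction 6488 and 6414, with 7100 without normalization. For Fshr mutant against wild type 2 were called with median scaling, 1 without normalization, 2 with only the groups compared, 1 with array weights, 4 without both arrays and 0 to 3 with 1 left out. For double mutant against wild type, 159 in the main setting became 75 without a filter, 291 with only the groups compared, 1464 with array weights, 321 without both arrays and 17 to 268 with 1 left out. For double mutant against Fshr mutant, 7 became 4 with cyclic loess, 2 without a filter, 3 with the brightest probe, 3 with only the groups compared, 68 with array weights, 87 without both arrays and 2 to 81 with 1 left out, the 81 without the array labelled double mutant replicate 2. The cause of these moves was not tested.

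The share of calls that were higher between double mutant and wild type was 34% in the main setting, 2.63% with median scaling and 1.94% without normalization, and for the interaction 41.1% against 53.5% with cyclic loess. The median over all probes moved from 0.17 to -0.01 (Lhr null against wild type) and from -0.16 to 0 (double mutant against Lhr null) with cyclic loess, and to -0.42 for the latter without normalization. The replicate block, with the label's replicate number as a term, called 42 probes in the double mutant against wild type, and 3 in the double mutant against Fshr mutant. Same-numbered arrays correlated over 0.1 in 5 of 25 pairs (range -0.35 to 0.24). Arrays with different numbers were not compared, so whether the numbers pair the samples is not known. The slide as a block was not run, since the sources used here name no slide. Signal near background limits Gdnf and Ctsl and leaves Inhba, Amh and Kitl without a test.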
